A study of Mus musculus with 18 samples.

Results

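The RNA levels of 9 genes for subunits of PRC1.6, a variant Polycomb repressive complex, were described in mouse embryonic stem cells (ESCs) in which PI3K was inhibited or Max expression was ablated. The genes were Pcgf6, L3mbtl2, E2f6, Tfdp1, Rnf2, Ring1, Cbx3, Hdac1 and Hdac2. They were found by symbol in the platform annotation by a rule that uses names alone, as 9 of 18194 genes with a probe set of their own. All 9 passed the filter on low values (a log2 level of 4.64 in at least 2 samples) in every comparison. The list was read over 18 probe sets that name a member alone, and over 4 more for Cbx3 that also name Cbx3-ps5, a near-identical pseudogene copy.

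RNA of 18 samples was hybridised to 18 Affymetrix arrays, 1 array a sample, and all cells are labelled as male 129SV EBRTcH3 ESCs or their derivatives. In serum with LIF, parental ESCs gave 2 samples without treatment, 2 at day 5 of the PI3K inhibitor LY294002 and 1 at day 2. Derivatives overexpressing wild-type c-Myc, or c-Myc(T58A), a point mutant of c-Myc, each gave 1 untreated, 1 day 2 and 1 day 5 sample. The 2i condition, which blocks MEK and GSK3, was used for parental cells only and gave 1 sample without LY294002 and 1 at day 5. Max-null ESCs, in which doxycycline (Dox) serves to ablate Max, gave 1 sample without Dox, 1 at day 4 and 1 at day 6. A derivative of these that overexpresses p110 alpha, a catalytic PI3K subunit, gave 1 sample without Dox and 1 with it, for which no day of Dox is stated. One description names N-Myc for the treated T58A samples, and all their other labels name c-Myc(T58A). Whether a derivative was 1 clone, and whether samples came from separate cultures, was not stated, so each p below measures the spread between these samples only.

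The deposited values are log2 levels, on which a difference of 1 is 2-fold. On 4 arrays, the 2i pair and the pair of parental serum replicate 1, medians were 5.03 to 5.05, against 5.31 to 5.52 for the other 14. They are treated here as a separate normalization run, which no label states. No main fit compared levels across it with a test, whereas the alternative without a block did so for parental cells. All 8 ESC markers read above the filter on all 18 arrays, with mean levels of 12.09 to 12.67, and of 8 fibroblast markers for feeder cells 1 to 4 did. Max read 7.09 in Max-null ESCs without Dox, 6.89 at day 4 and 7.18 at day 6, then 6.70 without and 6.33 with Dox in the p110 alpha line. On the other 13 arrays it read 8.17 to 8.71. The probe set was thus low in the Max-null lines before Dox and did not track the loss in the plain Max-null line, so it does not serve as a check of the ablation.

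Polycomb repressive complexes of the PRC1 class carry RING1 or RNF2 (RING1B), E3 ligases that ubiquitinate histone H2A, together with 1 of the PCGF proteins, and PCGF6 defines PRC1.6. This form finds DNA through sequence-specific partners, MGA with MAX at E-boxes and E2F6 with its dimer partner TFDP1 at E2F sites, and holds the MBT-domain protein L3MBTL2. The heterochromatin protein CBX3 and the deacetylases HDAC1 and HDAC2 were found with it. In ESCs the complex is known for keeping germline and meiotic genes low.

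The DNA words read by those partners were searched in RefSeq promoter windows of GRCm38.p6, from 250 bases before a start to 50 after, on both strands. The E-box word CACGTG stood in 8.09% of 27025 genes, in 1 of the 8 members with a window (Tfdp1), and in 11 of 17 germline genes of a list that PRC1.6 is known to repress. The E2F word TCCCGC stood in 22.0% of genes, in 4 of 8 members (E2f6, Tfdp1, Rnf2 and Hdac2), and in 8 of 17 germline genes. The T-box word AGGTGTGA, for the T-box domain of MGA, stood in 1.48% of genes, in 0 of 8 members, and in 1 of 17 germline genes (Sycp3). Hdac1 had no entry. A match is a run of letters and not a measured binding site. Stretches upstream of E2f6 and Tfdp1, the DNA-binding pair that read lower in Max-null ESCs with Dox, are shown beside those of a pair of germline genes that hold both words. Capitals mark CACGTG and TCCCGC or its reverse complement, and all 4 stretches lie on the plus strand upstream of the annotated start.
E2f6, chr12:16810815-16810964: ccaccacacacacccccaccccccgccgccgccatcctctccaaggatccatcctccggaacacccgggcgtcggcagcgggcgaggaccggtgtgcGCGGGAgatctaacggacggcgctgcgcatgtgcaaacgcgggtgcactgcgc
Tfdp1, chr8:13338501-13338750: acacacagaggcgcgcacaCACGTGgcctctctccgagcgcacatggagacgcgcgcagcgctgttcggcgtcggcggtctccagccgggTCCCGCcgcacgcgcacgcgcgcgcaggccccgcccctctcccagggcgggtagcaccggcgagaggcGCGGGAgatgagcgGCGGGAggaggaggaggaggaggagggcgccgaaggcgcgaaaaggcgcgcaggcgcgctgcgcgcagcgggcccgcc
Hormad1, chr3:95559527-95559676: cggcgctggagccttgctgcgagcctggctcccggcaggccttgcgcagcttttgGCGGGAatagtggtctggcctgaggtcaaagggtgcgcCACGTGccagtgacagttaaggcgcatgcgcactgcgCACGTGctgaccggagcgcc
Sycp3, chr10:88459387-88459586: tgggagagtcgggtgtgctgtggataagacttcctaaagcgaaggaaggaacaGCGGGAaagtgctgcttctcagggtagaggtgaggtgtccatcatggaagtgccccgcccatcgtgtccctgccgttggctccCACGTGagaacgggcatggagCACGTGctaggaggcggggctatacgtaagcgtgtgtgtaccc
The E2f6 stretch holds 1 E2F word and no E-box, and the Tfdp1 stretch holds 3 E2F words and 1 E-box. Each of the germline stretches holds 2 E-boxes and 1 E2F word.

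With LY294002 in serum ESCs, members were tested by the main probe set of each gene, that of highest mean level. Ring1 and Pcgf6 passed as higher at day 2 and Tfdp1 as well at day 5. These were 2 and 3 of 9 members, beside 18.3% and 25.7% of all genes, and no member passed as lower. On its probe set 1432108_at, Pcgf6 read -0.28 and -0.17 on these days. Ring1 rose most by main probe set, 1.40-fold at day 2 and 1.66-fold at day 5. At day 2 a second probe set of Pcgf6, at 1.45-fold, and one shared by Cbx3 and its copy, at 1.44-fold, read further up. Under Dox, 5 of 9 members read lower on both days in plain Max-null ESCs by main probe set, beside 48.2% of 13535 genes. Tfdp1 led them by main probe set, at -0.80 and -1.36, but Pcgf6 on 1454120_a_at read -1.58 and -1.81. In the p110 alpha line with Dox, changes by main probe set were at most 0.34 in size, while 1432108_at of Pcgf6 read -0.84. No member passed a test over these 2 lines.

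**Figure D1:**
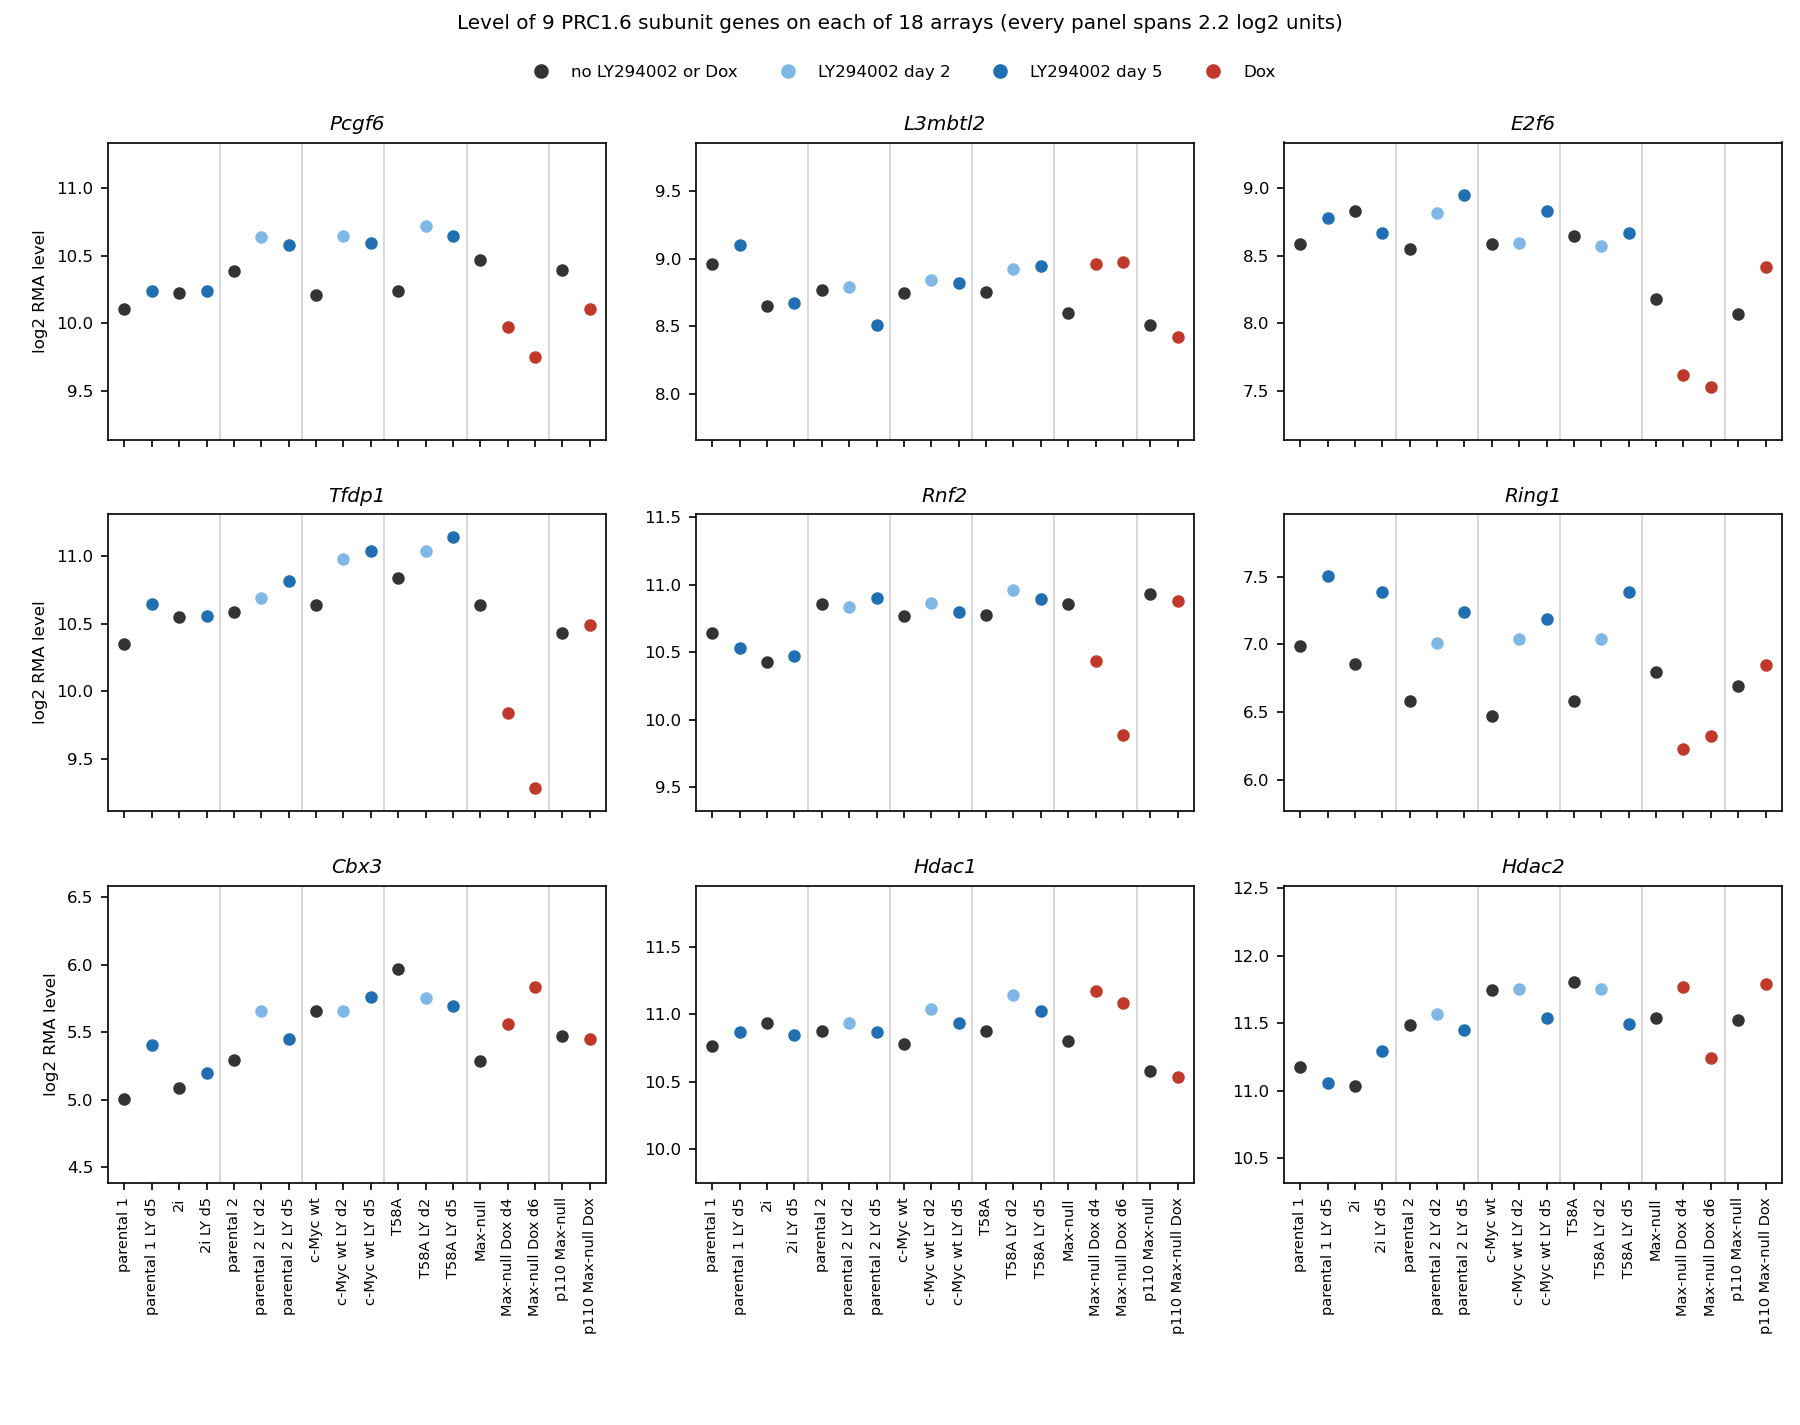
Log2 level of each member, by its main probe set, on each of the 18 arrays (x axis, grouped by line), with colour for treatment; panels have different centres but the same height of 2.2 log2 units. Ring1 is higher in every LY294002 sample than in its untreated sample, and Tfdp1 is lowest in the Max-null samples with Dox, at 9.84 and 9.28.

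LY294002 was tested at day 2 and day 5 over the 3 serum lines that share a normalization run, with line as a blocking term (9 samples, residual df of 4). The test was limma, which pools the spread over genes, with p adjusted over all genes tested. At day 2, 30.5% of 13421 genes passed an adjusted p of 0.05 (18.3% higher and 12.3% lower). Of the 9 members 2 rose and 0 fell, a share of the members close to that of all genes, and their median change was 0.09 against 0.04 over all genes. At day 5, 44.1% passed (25.7% higher and 18.5% lower), and 3 members rose and 0 fell, with a median of 0.10 against 0.05. Both days use the same untreated samples. In the EBRTcH3 lines, the 8 primitive endoderm markers summed to a linear level of 196 to 539 with LY294002 and 257 to 333 without, and the 8 ESC markers to 49920 to 54586 with and 54294 to 58923 without. The 6 neuroectoderm markers, with Zic1, Olig2 and Neurog2 below the filter throughout, summed to 524 in parental cells, 349 with wild-type c-Myc and 319 with T58A in the tested run, to 362, 277 and 308 at day 2 and to 294, 276 and 259 at day 5, lower in every treated sample. In the other run they went from 196 to 221 in serum and from 155 to 164 in 2i. Fibroblast markers summed to 146 to 204 with LY294002 and 152 to 198 without. Trophoblast markers, with Elf5 and Gata3 below the filter throughout, summed to 268, 268 and 298 in the same 3 untreated lines. At day 2 they summed to 264, 271 and 240 and at day 5 to 319, 345 and 340, higher at day 5 in every line. In the other run these went from 418 to 360 in serum and from 752 to 593 in 2i. The part of these in the members' changes was not tested.

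Ring1, the E3 ligase that shares its role with Rnf2, gave the largest response of the members by main probe set. In the 3 lines without LY294002 it read 6.58 in parental cells, 6.47 with wild-type c-Myc and 6.58 with T58A. At day 2 the same lines read 7.01, 7.04 and 7.04, and at day 5 they read 7.24, 7.19 and 7.39. The groups did not overlap. The rise was 0.49 ± 0.07 (SE, 3 lines; limma adjusted p = 0.00304) at day 2 and 0.73 ± 0.07 (adjusted p = 0.000339) at day 5. Without the wild-type c-Myc line the day 2 rise was 0.45 with adjusted p = 0.0731, while the day 5 call held without each line in turn. In the other run Ring1 went from 6.99 to 7.50 in parental replicate 1 and from 6.85 to 7.39 in 2i, so its day 5 changes in all 5 pairs lay between 0.51 and 0.81.

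Rnf2, the other E3 ligase and the more studied one in ESCs, stayed within 0.18 of its untreated sample in all 8 LY294002 samples by its main probe set. It read 10.86, 10.77 and 10.78 without LY294002 in the 3 lines, 10.83, 10.87 and 10.96 at day 2, and 10.90, 10.80 and 10.90 at day 5. The day 5 change was 0.06 ± 0.07 (95% interval -0.11 to 0.23; adjusted p = 0.524). Its probe sets differed: 1451519_at alone gave 0.30 ± 0.08 at day 5 (limma adjusted p = 0.0203, where 42.9% of 28907 probe sets passed), and 1448041_at gave -0.04.

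Pcgf6, the subunit that defines the complex, read 10.39, 10.21 and 10.24 in untreated parental, wild-type c-Myc and T58A cells. It read 10.64, 10.65 and 10.72 at day 2 and 10.58, 10.59 and 10.65 at day 5, with no overlap between the untreated and the treated samples. The rise was 0.39 ± 0.08 (adjusted p = 0.00851) at day 2 and 0.33 ± 0.08 (adjusted p = 0.0107) at day 5. Its 3 probe sets disagreed. Probe set 1454120_a_at rose too, by 0.53 ± 0.12 at day 2 (adjusted p = 0.0127), but 1432108_at read -0.28 ± 0.14 there (adjusted p = 0.182) and was 0.70 below its untreated sample in parental cells at day 2. With the mean of all 3, the changes were 0.21 on both days and passed on neither (adjusted p = 0.144 and 0.128). Leaving out the wild-type c-Myc line or the T58A line also ended the call on both days, with adjusted p of 0.0577 to 0.142.

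L3mbtl2, whose MBT repeats are known for histone binding, moved little. Its levels in the 3 lines were 8.77, 8.75 and 8.75 without LY294002, 8.79, 8.84 and 8.92 at day 2, and 8.51, 8.82 and 8.95 at day 5. The parental sample was the low one at day 5. The fitted change was 0.09 ± 0.10 at day 2 and 0.00 ± 0.10 at day 5 (95% interval -0.22 to 0.23).

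**Figure D2:**
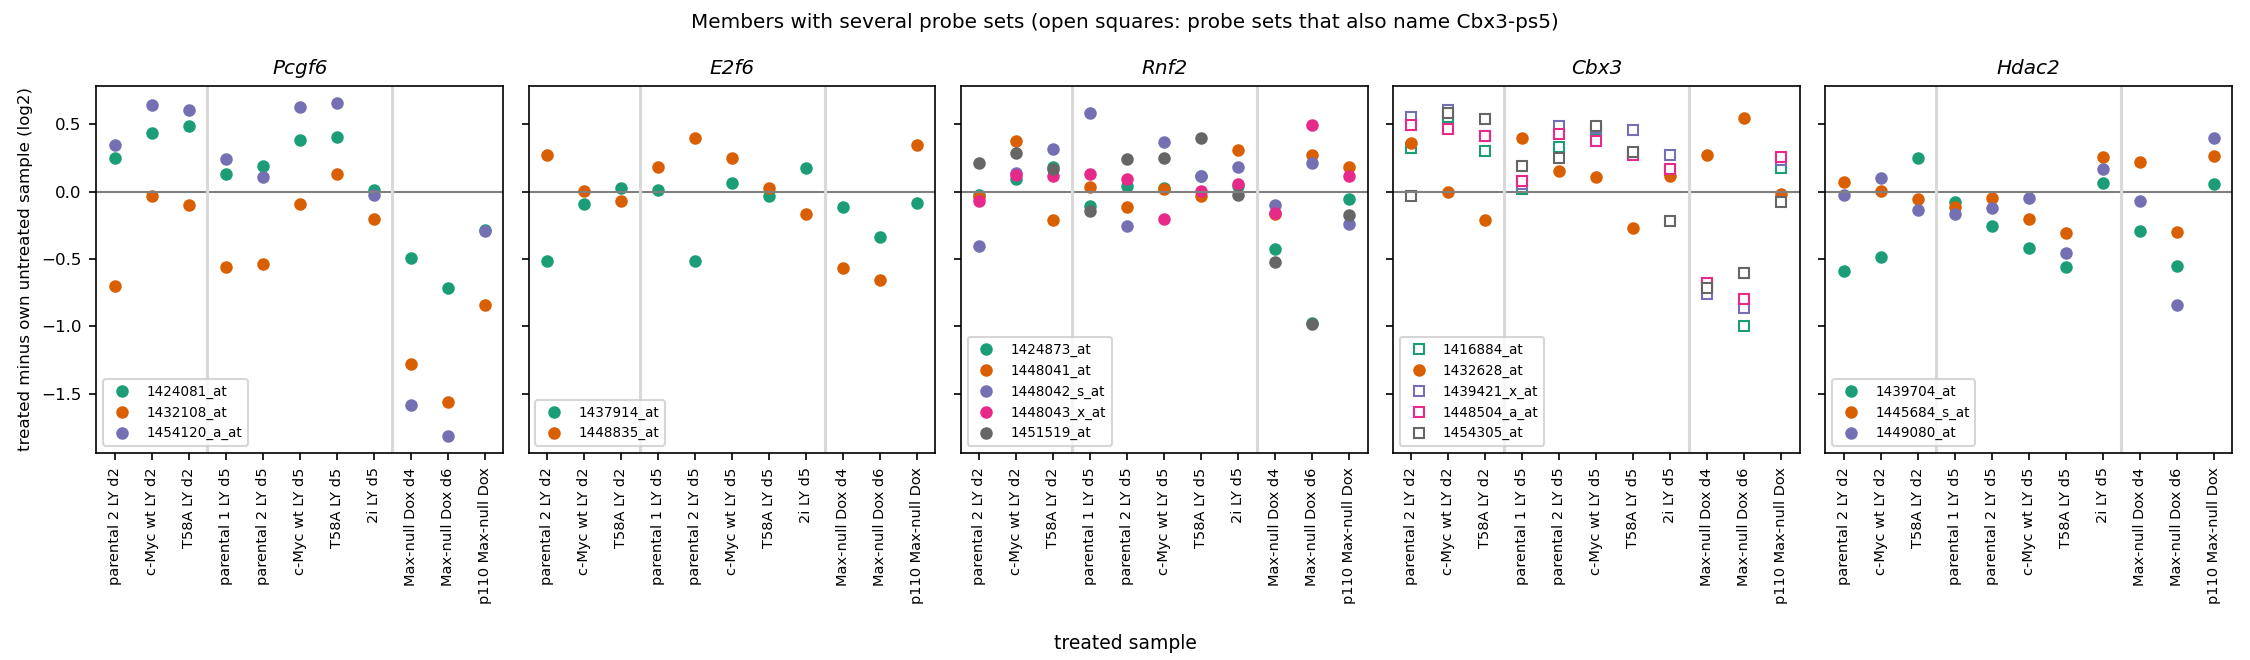
Change of each probe set (log2, treated minus its own untreated sample) in the 11 treated samples for the 5 members with several probe sets; circles are probe sets of 1 gene and open squares also name Cbx3-ps5. The 1432108_at points of Pcgf6 lie below the other 2 probe sets in every LY294002 sample, and the Cbx3 squares lie opposite to the Cbx3 circle under Dox in Max-null ESCs.

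Tfdp1, a dimer partner with which E2F6 and several other E2F proteins bind DNA, read 10.59, 10.64 and 10.84 in the 3 untreated lines, 10.69, 10.97 and 11.04 at day 2, and 10.81, 11.04 and 11.14 at day 5. Untreated T58A cells overlapped the treated samples of the parental line, so the rise shows within lines. It was 0.21 ± 0.07 at day 2 (adjusted p = 0.0622) and 0.31 ± 0.07 at day 5 (adjusted p = 0.0110). The day 5 call was lost without the line as a block (adjusted p = 0.0882), without the wild-type c-Myc line (0.152) and without the T58A line (0.0573). At day 2, Tfdp1 passed under 4 of the other settings, with adjusted p of 0.0261 to 0.0494.

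E2f6, the E2F protein that represses without a transactivation domain, read 8.55, 8.58 and 8.64 without LY294002, 8.82, 8.59 and 8.57 at day 2, and 8.95, 8.83 and 8.67 at day 5. The parental cells were the highest at both days and the T58A cells near their untreated level. The change was 0.07 ± 0.09 at day 2 and 0.22 ± 0.09 at day 5 (adjusted p = 0.0823). The call at day 5 was gained when arrays were centred on their medians (adjusted p = 0.0499). The second probe set, 1437914_at, near the filter at 4.48 to 5.47 over the 18 arrays, read -0.19 at day 2 and -0.16 at day 5.

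For Cbx3, a reader of methylated histone H3, the probe set of its own read 5.01 to 5.97 over the 18 arrays. It gave 0.05 ± 0.12 at day 2 and 0.00 ± 0.12 at day 5. Probe sets 1416884_at, 1439421_x_at and 1448504_a_at rose by 0.39, 0.53 and 0.46 at day 2 (adjusted p = 0.0110, 0.00315 and 0.00428, where 29.4% of probe sets passed), and by 0.36, 0.47 and 0.36 at day 5. These 3 read far brighter, from 9.43 (1439421_x_at) up to 12.69 (1416884_at) over the 18 arrays. They also name Cbx3-ps5, and signal of the gene and its copy cannot be told apart in them, so the response of Cbx3 is uncertain. The member fits and counts use the dim probe set of its own.

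Hdac1 and Hdac2, paired deacetylases that also serve other repressor complexes, differed little from their untreated samples. Hdac1 read 10.88, 10.78 and 10.87 without LY294002 and 10.93, 11.04 and 11.14 at day 2, a change of 0.19 ± 0.07 (adjusted p = 0.0858). Hdac2 read 11.49, 11.74 and 11.81 without LY294002 and 11.45, 11.54 and 11.50 at day 5, a change of -0.19 ± 0.07 (adjusted p = 0.0803). Both passed with a trended robust prior (adjusted p = 0.0394 for Hdac1 at day 2 and 0.0303 for Hdac2 at day 5).

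**Figure D3:**
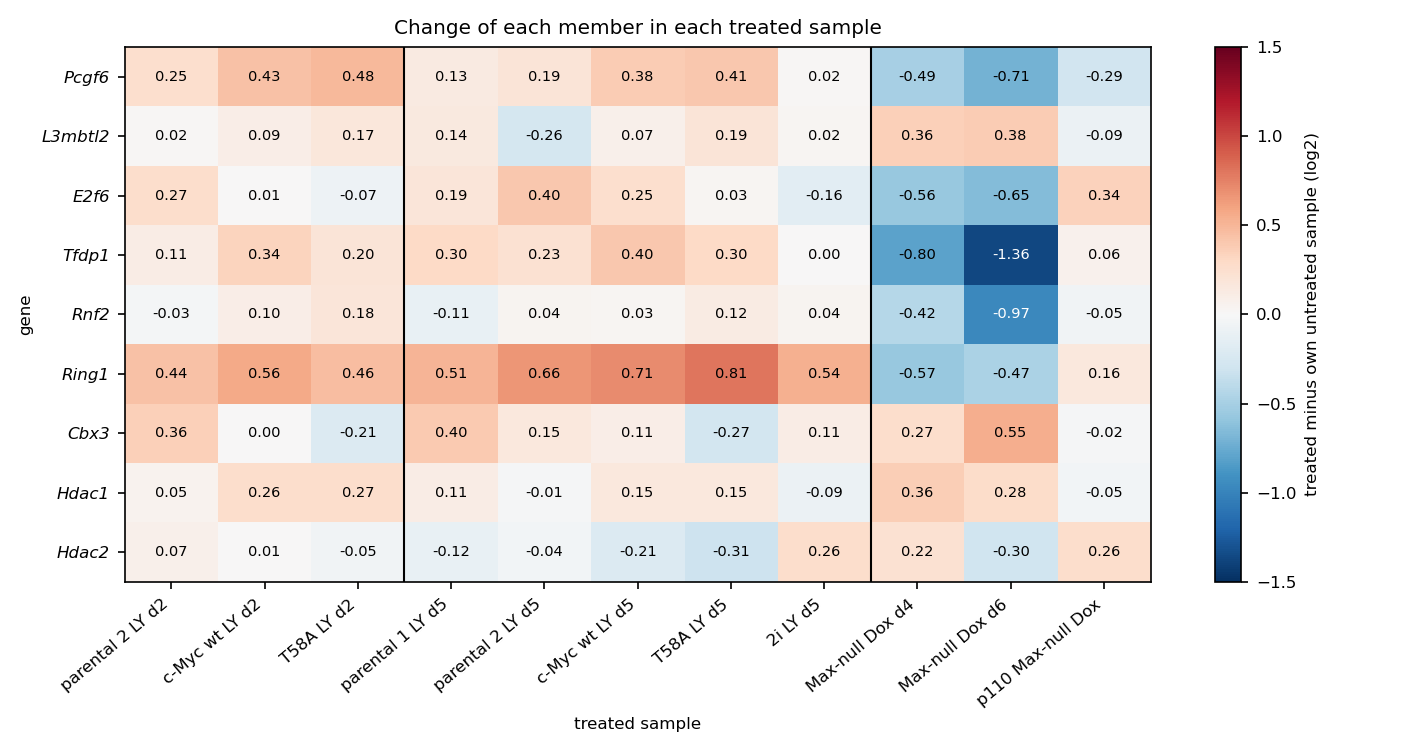
Log2 change of each member (rows) in each of the 11 treated samples against its own untreated sample (columns), red for higher and blue for lower. Ring1 is between 0.44 and 0.81 in the 8 LY294002 columns, and the Tfdp1 cell at Max-null Dox day 6 is the darkest blue, at -1.36.

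Over the 5 day 5 pairs, each with an untreated sample of its own, 3 of 9 members (Pcgf6, Tfdp1 and Ring1) were higher in all 5, beside 16.9% of 13581 genes. No member was lower in all 5, beside 13.8% of genes. For Pcgf6 and Tfdp1 the pair in 2i was the smallest, at 0.02 and 0.00, whereas Ring1 was 0.54 higher there. Without LY294002, 2i cells differed from parental serum replicate 1 by at most 0.31 in any member, L3mbtl2 being lower by that amount and E2f6 higher by 0.24. These are single samples and carry no test.

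Whether overexpressed c-Myc alters the response to LY294002 is a question of the design. The 8 serum samples of untreated and day 5 cells were fitted with a coefficient for the 2 parental pairs and one for the 2 c-Myc lines. In parental pairs 0.53% of 13405 genes passed in limma (2927 with an unadjusted p under 0.05), and 0 members did. Ring1, the 1 member with an unadjusted p under 0.05, was higher by 0.59 ± 0.11 (adjusted p = 0.108). In the c-Myc lines 2.62% passed (3800 unadjusted), and again 0 members. By main probe set 3 were below 0.05 before adjustment: Tfdp1 at 0.35 ± 0.11 (adjusted p = 0.129), Ring1 at 0.76 ± 0.11 (adjusted p = 0.0516) and Pcgf6 at 0.39 ± 0.10 (adjusted p = 0.106). So were some further probe sets, among them 1439704_at of Hdac2 at -0.49 ± 0.13 and 1439421_x_at of Cbx3 and its copy at 0.46 ± 0.15. The difference between the coefficients passed for 0% of genes, 457 of them with an unadjusted p under 0.05. By main probe set, member differences ran from -0.36 ± 0.21 for Cbx3 to 0.23 ± 0.15 for Pcgf6, every adjusted p being 0.996. Pcgf6 differed by more on 1432108_at, at 0.57 ± 0.18, and on 1454120_a_at, at 0.47 ± 0.17. Their unadjusted limma p were 0.026 and 0.0391, where 0% of 28945 probe sets passed. For Ring1 the interval of the difference was -0.25 to 0.59, which leaves room for a response altered in either direction. Calls in this fit turn on the pairs in it: without parental replicate 1, 4711 genes passed in the remaining parental pair and 5503 in the c-Myc lines, Ring1 among both (adjusted p = 0.0143 and 0.00362). That leaves 1 parental pair, whose p assumes that it varies like the c-Myc pairs. Replicate 1 is also the only one of the 4 pairs from the other normalization run. Without either c-Myc line 0 passed in either group. Without parental replicate 2, the 1 parental pair left was replicate 1, in which Ring1 was higher by 0.51. That pair lies in the other normalization run, so c-Myc and run cannot be told apart in the difference, and no count is given for it. In the c-Myc lines of that fit the changes of Ring1, Pcgf6 and Tfdp1 were those above, 0.76, 0.39 and 0.35, and no call is given.

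**Figure D4:**
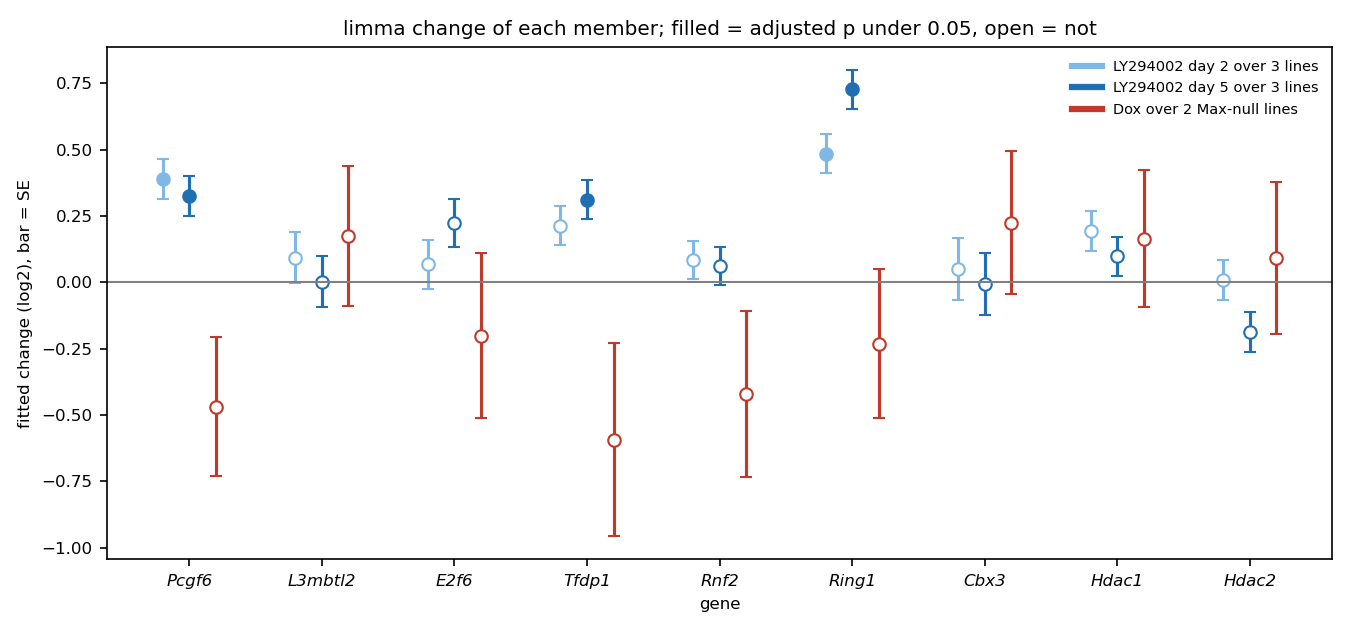
Fitted log2 change of each member with its standard error for LY294002 at day 2 and day 5 over 3 serum lines and for Dox over both Max-null lines, filled where the adjusted p was under 0.05. Ring1 and Pcgf6 are filled at both LY294002 days and Tfdp1 at day 5, and every Dox point is open.

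For Dox the 5 Max-null samples of both lines were fitted, blocked by line, with a residual df of 2; day 4 and day 6 of the plain line both entered as Dox. By main probe set the fit called 0% of 13535 genes and 0 members. An unadjusted p under 0.05 was seen for 701 genes, 0 members among them. By main probe set the member nearest to a call by raw p was Pcgf6, at -0.47 ± 0.26 (adjusted p = 0.800). The largest such change was that of Tfdp1, at -0.59 ± 0.36 (adjusted p = 0.800). Pcgf6 read further down on 1432108_at, at -1.17 ± 0.28, and on 1454120_a_at, at -1.09 ± 0.37. Their unadjusted limma p were 0.00453 and 0.0221, with adjusted p = 0.763 for both, where 0% of 29032 probe sets passed. Without the p110 alpha line 1430 genes passed, 545 higher and 885 lower, and still 0 members: Tfdp1 stood at -1.08 (adjusted p = 0.0794), Rnf2 at -0.70 (0.233) and E2f6 at -0.61 (0.257). There 1 untreated sample stands against both Dox days, and the difference between the days is the only residual, so these p carry no spread between untreated samples. Without Dox day 4, 56 genes passed.

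In plain Max-null ESCs Tfdp1 went from 10.64 without Dox to 9.84 at day 4 and 9.28 at day 6, the only member past 2-fold by its main probe set, on a day when 15.6% of 14020 genes read at least 2-fold lower. In the p110 alpha line it read 10.43 without Dox and 10.49 with it. Its partner E2f6 went from 8.18 to 7.62 and 7.53 in the plain line, but from 8.07 to 8.41 in the p110 alpha line. By main probe set both DNA-binding members were thus lower in each Max-null sample with Dox, while in the p110 alpha sample E2f6 was higher by 0.34 and Tfdp1 by 0.06. The second probe set of E2f6, 1437914_at, read lower in all 3 Dox samples, at -0.11 and -0.34 in the plain line and -0.08 in the p110 alpha line.

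Pcgf6 was the member that read lower in all 3 Dox samples on every probe set. It went from 10.47 to 9.98 and 9.75 in Max-null ESCs and from 10.39 to 10.11 in the p110 alpha line. On 1432108_at the changes were -1.28, -1.56 and -0.84, and on 1454120_a_at they were -1.58, -1.81 and -0.29. L3mbtl2 went the other way in Max-null ESCs, from 8.60 to 8.96 and 8.98, and from 8.51 to 8.42 with p110 alpha.

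The catalytic subunits were lower in the plain line as well. Rnf2 went from 10.86 to 10.44 and 9.89 in Max-null ESCs and from 10.93 to 10.88 in the p110 alpha line. Ring1 went from 6.80 to 6.23 and 6.32, and from 6.69 to 6.85. Probe sets 1424873_at and 1451519_at of Rnf2 gave -0.97 and -0.98 at day 6, while 1448041_at, 1448042_s_at and 1448043_x_at read higher on that day than without Dox.

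Hdac1 read 10.80, then 11.17 and 11.08 with Dox in Max-null ESCs, and 10.58 and 10.54 in the p110 alpha line. Hdac2 had no common direction, at 11.54, 11.76 and 11.25 in Max-null ESCs and 11.53 and 11.79 with p110 alpha. The Cbx3 probe set of its own was higher by 0.27 and 0.55 in Max-null ESCs with Dox, whereas the 4 it shares with Cbx3-ps5 were lower by 0.61 to 1.00 in size, so no direction is given for Cbx3.

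As counts, 5 of 9 members were lower on both Dox days in Max-null ESCs, beside 48.2% of 13535 genes, and 2 of 9 (E2f6 and Tfdp1) were lower by at least 0.5 on both days, beside 22.1%. These shares are near those of all genes. The plain line moved one way on both days and the p110 alpha line the other way for 6 of 9 members by main probe set, beside 48.1% of genes. Cbx3, for which no direction is given, is 1 of those 6, and E2f6 did not do so on its second probe set. The member medians were -0.42 at day 4 and -0.47 at day 6, against -0.09 over all genes on both days, and -0.02 against 0.07 in the p110 alpha line. The difference between the lines was fitted with an interaction, which was added after the values were seen. Its 1 residual degree of freedom is the difference between day 4 and day 6 of the plain line, so its p carries no spread of the p110 alpha line, which has 1 sample with Dox and 1 without. It called 1.88% of genes (2259 unadjusted), that is 254, against 488 with centred arrays, 82 after quantile normalization and 138 without a filter. By main probe set it called 0 members, none of which had an unadjusted p under 0.05. Pcgf6 differed by 1.41 ± 0.53 on 1454120_a_at, against 0.32 ± 0.51 by main probe set. Tfdp1 differed by 1.14 ± 0.55 (95% interval -0.08 to 2.36; adjusted p = 0.331) and E2f6 by 0.95 ± 0.50 (interval -0.16 to 2.06; adjusted p = 0.375).

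Markers of other cell types moved with these readings. The 8 primitive endoderm markers had a mean level of 4.77 in Max-null ESCs without Dox, 5.41 at day 4 and 6.04 at day 6, with 3, then 6 and 6 of them above the filter and Gata4 and Sox7 below it throughout. Their summed linear level was 293, 473 and 899. In the p110 alpha line it was 410 without and 368 with Dox. The 8 trophoblast markers summed to 352, 360 and 501 in Max-null ESCs, with Elf5 and Gata3 below the filter on each array, and to 280 and 333 with p110 alpha. The 6 neuroectoderm markers summed to 287, 442 and 535 in Max-null ESCs and went from 372 to 217 with p110 alpha, with Olig2 and Neurog2 below the filter on each array. The 8 fibroblast markers summed to 226, 245 and 325, and to 205 and 250, with Col3a1, Postn and Lum below it. The 8 ESC markers had means of 12.60, 12.52 and 12.09, and 12.60 and 12.67. The Max-null day 6 array also had the narrowest spread of values, an SD of 2.36 against 2.48 to 2.57 on the other arrays. The part of these in the members' readings was not tested, and in bulk RNA fewer cells of a type and less RNA per cell cannot be told apart.

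Before Dox, the Max-null lines were set against the 3 EBRTcH3 lines of the same run. There 0.267% of 13127 genes passed in limma and 0 members, with 1688 genes and 1 member (E2f6) at an unadjusted p under 0.05. Without the p110 alpha sample 880 genes passed and without the plain Max-null sample 1 did, with 0 members in either case and 1 Max-null sample left, assumed to vary like the others. E2f6 had the smallest p of the members, 8.18 and 8.07 in the Max-null lines against 8.55, 8.58 and 8.64, without overlap, a difference of -0.47 ± 0.13 (adjusted p = 0.232). On its second probe set, 1437914_at, E2f6 differed by -0.11 ± 0.17. By main probe set the other members differed by 0.26 or less in size. Pcgf6 read 0.52 ± 0.35 on 1432108_at and Hdac2 -0.30 ± 0.15 on 1439704_at. Of the partners outside the members, Max itself passed, at -1.49 ± 0.18 (adjusted p = 0.0455).

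The partners outside the members were Mga, Max, Wdr5, Yaf2, Rybp, Tfdp2, Ehmt1 and Ehmt2, of which 7 were on the array with a probe set of their own. With LY294002 2 of 7 rose and 1 fell on each day, near the shares of all genes (18.3% and 12.3% at day 2, 25.7% and 18.5% at day 5). Mga, the scaffold that pairs with MAX, fell by 0.64 ± 0.09 at day 2 (adjusted p = 0.00291) and by 0.78 ± 0.09 at day 5 (adjusted p = 0.000659). In the 3 lines it read 11.20, 10.86 and 10.80 without LY294002 and 10.40, 10.18 and 9.94 at day 5. The H3 lysine methyltransferase Ehmt2 rose by 0.63 and 1.15, and its partner Ehmt1 by 0.24 and 0.27. Under Dox 0 of 7 passed.

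Of 16 tested genes of other PRC1 forms, 9 rose and 2 fell at day 5 of LY294002, when 25.7% of all genes rose and 18.5% fell; the same shares stand beside the counts of PRC2 genes and relatives that follow. Pcgf5, which defines another variant complex, rose by 1.71 ± 0.08 and Bmi1, a canonical PCGF protein, fell by 1.55 ± 0.17 (adjusted p = 4.48e-05 and 0.000475). The scaffold genes Phc1 and Phc2 rose by 0.76 and 0.79. Of 11 PRC2 genes 2 rose (Ezh1 and Ezh2, at 0.27 and 0.25) and 3 fell, among them Eed, by 0.56, and Phf1, by 0.33. Of 12 relatives of the members 8 rose and 0 fell, with E2f8 at 0.91, E2f5 at 0.77, E2f7 at 0.54 and E2f3 at 0.48. Under Dox 0 genes of these 3 lists passed. E2f3, at -0.90 ± 0.43, had the largest change among the 4 relatives of smallest p.

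The germline genes known as PRC1.6 targets had the largest median under Dox of the 6 lists described here. All 15 tested had a Dox coefficient above 0, with a median of 1.79 against -0.03 over all genes, and 0 passed. Before Dox, 13 of 14 tested already read higher in the Max-null lines than in the EBRTcH3 lines. The median of that difference was 1.09 against -0.01 over all genes, and 0 passed. At day 4 in Max-null ESCs 14 of 15 were at least 2-fold higher, at day 6 15 of 15, and in the p110 alpha line 9 of 14, beside 5.19%, 8.91% and 1.55% of all genes. Dazl, an RNA-binding protein of germ cells, went from 9.23 to 12.40 and 12.57 in Max-null ESCs and from 7.35 to 9.49 in the p110 alpha line. Sycp1, of the synaptonemal complex, went from 6.22 to 10.34 and 10.06, and from 4.65 to 5.71.

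With LY294002, 4 of 14 genes of the same list rose and 3 fell at day 5, near the shares of all genes (25.7% and 18.5%). Sycp3, whose upstream stretch with 2 E-boxes is printed above, fell by 1.89 ± 0.17 (adjusted p = 0.000251), and Hormad1 by 1.22 ± 0.22 (adjusted p = 0.00357). Mael, of the piRNA pathway, rose by 1.17 ± 0.17 (adjusted p = 0.00138). At day 2 6 rose and 1 fell, beside 18.3% and 12.3% of all genes, Mael by 1.72 and Dazl by 0.79 among those that rose.

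**Figure D5:**
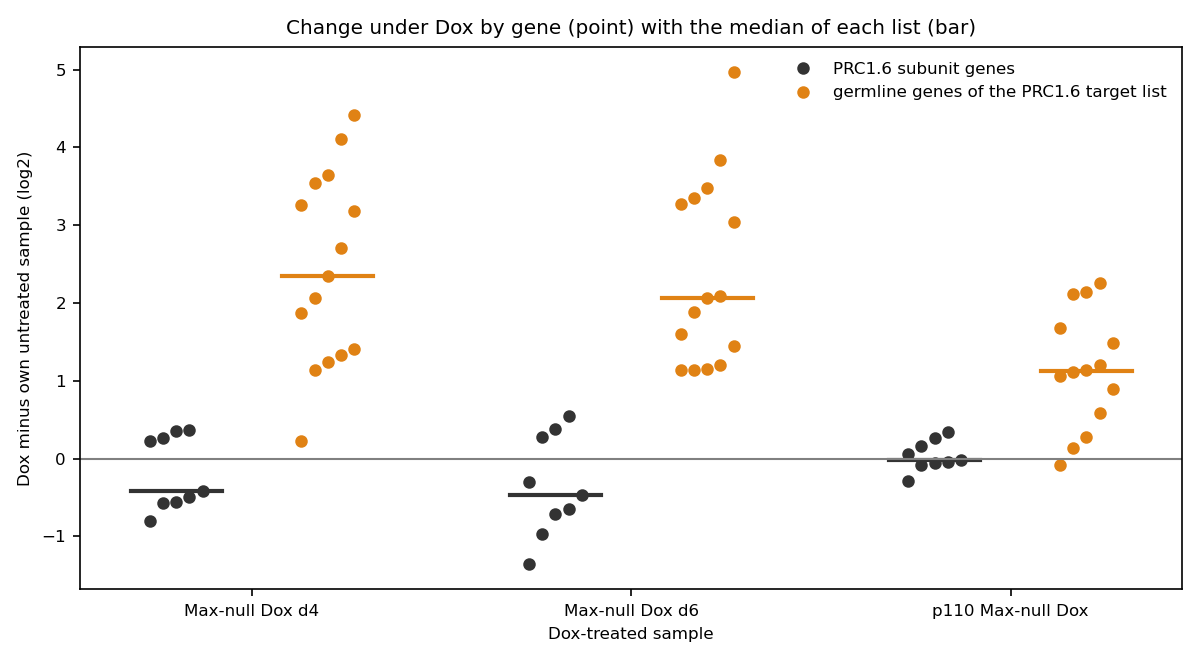
Log2 change of each PRC1.6 member (black) and each germline gene of the target list above the filter (orange) in the 3 Dox samples against their own untreated samples, with a bar at the median. The germline medians are 2.34, 2.07 and 1.13, and the member medians are -0.42, -0.47 and -0.02.

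The genes whose 11 changes were most like those of Pcgf6, among 12902 genes, were Emb (r = 0.985), E2f8 (0.981) and Tle4 (0.979). Over the 8 LY294002 changes alone the same r values were 0.92, 0.87 and 0.90. For L3mbtl2 they were Gm5113 (0.942), Nphs1os (0.940) and Pax6 (0.939). The 11 changes share untreated samples and lines, so these values describe likeness of readings and carry no test.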

How the data were processed

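Affymetrix arrays measured 18 ESC samples, from TRIzol RNA made into biotin-labelled cRNA, per the labels' protocols. The deposited values are log2 probe set levels from RMA in the affy package, per the submitters' processing notes; versions, settings and the number of RMA runs were not given in the sources used here. The table held 45101 probe sets, of which 34958 named 1 gene, 932 several, 9147 none and 64 were controls; 34754 of the first were matched to a RefSeq gene. Precision is limited by how many arrays there are.

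Each of 18194 genes was read by its probe set of highest mean. A gene was tested if 2 or more samples of a fit lay above 4.64, the 40th percentile of the table. Fits used limma 3.58.1 (lmFit and eBayes, R 4.3.3), 2-sided, with Benjamini-Hochberg adjustment over all genes tested and a threshold of 0.05. Samples were paired by the reference sample that the descriptions name, and pair or line was a block. As a check of the pairing, differences between pairs correlated over genes before and after treatment at r = 0.565 (parental), 0.170 (c-Myc) and 0.162 (Max-null). The parental value sets replicate 1 against replicate 2, which are treated here as separate normalization runs. Pairing and run cannot be told apart in it, so only the c-Myc and Max-null values bear on the pairing. The fits were tested on simulated data.

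The text names all 9 members, and from each other list the 4 genes of smallest p in a comparison; Max, Mga and genes shown for a promoter were looked up too. The members and lists were chosen with earlier results of these data known, so no list is independent evidence. Alternatives changed the filter, scaling, probe set rule, prior and block, and left out each pair, line or sample.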

Additional observations from a re-analysis of the deposited data

Results flagged for a closer look

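By main probe set, 6 of the 9 members read one way on both Dox days in plain Max-null ESCs and the other way in p110 alpha Max-null ESCs with Dox. Over all 13535 genes tested, 48.1% did the same. E2f6 stood at -0.56 and -0.65 against 0.34, Tfdp1 at -0.80 and -1.36 against 0.06, and Ring1 at -0.57 and -0.47 against 0.16 (log2, day 4, day 6 and p110 alpha). L3mbtl2 stood at 0.36 and 0.38 against -0.09, Cbx3 at 0.27 and 0.55 against -0.02, and Hdac1 at 0.36 and 0.28 against -0.05. The 4 probe sets that Cbx3 shares with Cbx3-ps5 were lower by 0.61 to 1.00 in size in Max-null ESCs, so no direction is given for Cbx3. Probe set 1437914_at of E2f6, near the filter at 4.48 to 5.47 over the 18 arrays, read lower in all 3 Dox samples. The opposite directions were seen in single samples. The interaction fitted for the difference between the lines was chosen after the values were seen. By main probe set it passed for 0 of the 9 members, with the smallest limma adjusted p at 0.331 for Tfdp1. The p of this interaction carries no spread of the p110 alpha line.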

How the results depend on the processing

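With LY294002 over 3 lines, Ring1, Pcgf6 and Tfdp1 by their main probe sets kept their direction under each change of filter, scaling, prior and block and without each line in turn. Of 767 alternative values of single members, 693 kept direction and call, 19 gained a call, 10 lost one and 45 changed sign; leaving out samples leaves fewer of them, and otherwise the cause was not tested. The 10 lost calls are those of Pcgf6, Tfdp1 and Ring1 given in the text. Each change of sign concerned a member that was not called, except the Pcgf6 probe set 1432108_at. Signal against background was not used beyond the filter, so small values carry little weight.

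The counts of genes called moved with some settings. In the c-Myc lines at day 5 536 genes passed with a trended robust prior and 533 with a stricter filter (60th percentile). For Dox in the p110 alpha line against the plain line 138 passed without a filter, 488 with arrays centred on their medians and 82 after quantile normalization. Without the replicate block, that is without the pairing by pair or line, 0 genes passed in parental pairs, 44 in the c-Myc lines and 2663 at day 2; the Tfdp1 call at day 5 was the only member call lost there. Leaving out 1 pair, line or sample at a time gave 0 to 4711 genes in parental pairs, 0 to 5527 in the c-Myc lines, 0 to 1337 for their difference, 1010 to 3119 at day 2, 2881 to 4914 at day 5, 0 to 1430 for Dox and 1 to 880 between untreated lines.

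Signs changed as follows, in log2. Scaling turned Cbx3 at day 5 over 3 lines to 0.0258 (centred) and 0.0246 (quantile), and L3mbtl2 there to -0.0031 (quantile). The mean over probe sets turned Pcgf6 to -0.0710 and Rnf2 to 0.0498 in parental pairs, E2f6 to 0.0539 for c-Myc minus parental, E2f6 to -0.0611 and Hdac2 to -0.0945 at day 2, and Hdac2 to -0.0706 under Dox. Leave-one-out ranges that cross 0 were -0.26 to 0.14 for L3mbtl2, -0.11 to 0.0440 for Rnf2 and -0.0125 to 0.11 for Hdac1 in parental pairs, -0.27 to 0.11 for Cbx3 in the c-Myc lines, and -0.0104 to 0.39 for L3mbtl2 in the difference. At day 2 they were -0.0319 to 0.14 for E2f6, -0.10 to 0.18 for Cbx3 and -0.0228 to 0.0416 for Hdac2. At day 5 over 3 lines they were -0.0945 to 0.13 for L3mbtl2 and -0.0828 to 0.13 for Cbx3, and under Dox -0.0369 to 0.24 for Hdac2.

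Single probe sets, tested after the data were seen, gave other signs too. For Pcgf6, 1432108_at read -0.55 in parental pairs, -0.28 at day 2 and -0.17 at day 5 over 3 lines. For E2f6, 1437914_at read -0.25 in parental pairs, 0.26 for c-Myc minus parental, -0.19 at day 2 and -0.16 at day 5. For Rnf2, 1448043_x_at read 0.11 in parental pairs, -0.0975 in the c-Myc lines, -0.21 for their difference, -0.0341 at day 5 over 3 lines, 0.15 under Dox, -0.14 between untreated lines and -0.0499 for p110 alpha against plain Max-null. Its 1448041_at read -0.0065 in the c-Myc lines, -0.0413 at day 5, 0.11 under Dox and -0.15 between untreated lines, and 1451519_at read 0.0496 in parental pairs. For Hdac2, 1439704_at read -0.27 at day 2 and -0.22 under Dox, and 1449080_at read -0.0195 and -0.0880.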
